A study of Mus musculus with 44 samples.

Results

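The 34 genes described here are p53 with its regulators and target genes, the BCL2 family, and the caspases with their adaptor and inhibitors, measured in mouse ovarian follicles exposed to PFNA. They were chosen by gene symbol from 3 lists: 18 genes of the p53 axis, 12 of the BCL2 family (Bax, Bbc3 and Pmaip1 stand in both) and 7 of the caspase group, to which Dap was added. All 34 were found among 22674 genes in the table of the maturation window and among 18274 genes in that of the ovulation window. PFNA (perfluorononanoic acid) is a long-chain perfluoroalkyl substance, a persistent pollutant.

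The follicles came from wild-type CD-1 mice and were profiled by bulk RNA-seq in 44 libraries. In the maturation window, 11 control libraries from follicles given DMSO, the solvent, were set against 10 libraries from follicles given PFNA. In the ovulation window, 12 control libraries from follicles given hCG were set against 11 from follicles given hCG with PFNA, so both groups of that window had received the ovulatory hormone. The labels name no dose, no age, no number of follicles per library and no animal behind a library. The p-values therefore measure the spread between these libraries, which may be technical. In bulk follicle RNA, fewer cells of a type and less RNA per cell cannot be told apart.

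p53, encoded by Trp53, is a transcription factor that is held at a low level by the ubiquitin ligase Mdm2 and, after DNA damage or other stress, switches on genes for cell-cycle arrest, repair and cell death. Mitochondrial apoptosis is set by the BCL2 family: survival members (BCL2, BCL-XL, MCL1) restrain the pore formers BAX and BAK, and BH3-only members such as PUMA, NOXA and BIM release them, after which cytochrome c, APAF1 and caspase-9 assemble into the apoptosome. In the ovary, apoptosis of granulosa cells accompanies the loss of follicles known as atresia, and the ovulatory hormone surge reshapes survival signalling in the same cells.

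The p53 protein binds pairs of a decamer with a C, 2 bases of A or T and a G at its centre, so the decamers nearest the starts of the member genes are shown before their values. Promoter sequences from RefSeq (build GRCm38.p6, 250 bases before to 50 after the start) matched 28 of the 34 members. These 28 had 42 promoters in all, and a gene with several promoters had more stretches in which a decamer could be found. An exact decamer on either strand was found in promoters of 8 of the 28 members (Trp53, Mdm2, Bax, Ccng1, Sesn1, Aen, Bmf and Birc2), against 9.55% of all 27025 genes with a promoter in the table and 8.36% of 32851 promoters. With 1 mismatch allowed, 19 of the 28 held a decamer, against 54.2% of all genes. A pair of decamers no more than 13 bases apart, each with at most 1 mismatch, was found only in the promoter of Ccng1, against 3.09% of all genes. In the stretches below, each written 5′ to 3′ on the strand of its gene, capitals mark the decamer (both decamers for Ccng1).
Ccng1, chr11:40755437-40755506, minus strand: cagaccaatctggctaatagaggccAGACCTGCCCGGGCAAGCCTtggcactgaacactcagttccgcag
Mdm2, chr10:117710910-117710969, minus strand: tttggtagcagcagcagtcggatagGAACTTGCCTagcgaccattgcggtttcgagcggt
Bax, chr7:45467065-45467124, minus strand: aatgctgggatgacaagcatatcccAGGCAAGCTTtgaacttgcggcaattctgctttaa
Sesn1, chr10:41887241-41887300, plus strand: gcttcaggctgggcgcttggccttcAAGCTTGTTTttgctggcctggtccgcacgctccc
Trp53, chr11:69580259-69580318, plus strand: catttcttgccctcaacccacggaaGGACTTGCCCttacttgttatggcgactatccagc
The AP-1 site TGANTCA, searched on both strands, was found in promoters of Fas and Mdm4, against 8.97% of all genes, and is in capitals in this pair.
Fas, chr19:34290423-34290479, plus strand: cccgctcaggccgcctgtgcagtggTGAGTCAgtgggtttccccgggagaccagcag
Mdm4, chr1:133025519-133025575, minus strand: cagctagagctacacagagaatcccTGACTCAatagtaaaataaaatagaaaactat
These matches describe letters in a window and were not tested as binding sites. None of the 7 stretches touches an annotated exon, and those of Sesn1 and Mdm4 lie before an alternative start within the gene.

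Values of the maturation window are in TPM (transcript abundance corrected for length, summing to 1000000 per library). Those of the ovulation window are in CPM, from estimated counts. CPM are counts per 1000000 of the library size as scaled by TMM, a normalization between libraries, and are not corrected for length. The totals of the estimated counts, in units of 1000000, were 12 to 16 in the controls and 10.6 to 19.5 with PFNA. The labelled tissue held its markers: 10 granulosa genes summed to 3.83% to 6.09% of TPM in the maturation controls and 1.73% to 4.64% with PFNA. In the ovulation window they summed to 1.7% to 2.35% and 1.64% to 2.57% of the scaled library size. Some libraries stood apart in 10 oocyte markers, whose summed share in the maturation window was 0.0122% to 0.0190% in the controls. With PFNA that share was at most 0.00139% in 7 libraries, but 0.0129%, 0.0115% and 0.0332% in replicates 1, 2 and 10. In the ovulation window the oocyte share was 0.00734% to 0.0311% in the controls and 0.00439% to 0.0458% with PFNA, lowest in PFNA replicate 5. Genes whose transcripts match the mitochondrial genome took 18.0% to 23.5% of TPM in the maturation controls and 21.2% to 27.7% with PFNA. Theca and stroma markers overlapped between the groups in both windows, at 0.0494% to 0.202% in maturation and 0.129% to 0.470% in ovulation.

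In maturation controls, where TPM allows genes to be ranked, the survival gene Mcl1 was the most abundant member at 323 TPM ± 40.2 (SD, n = 11). It was followed by the cyclin G1 gene Ccng1 at 201 ± 44.2, the antiproliferative gene Btg2 at 140 ± 58.7, Bax at 102 ± 20.5 and Trp53inp1 at 90.6 ± 19.3 TPM. Neighbours among these 5 had overlapping ranges, Mcl1 at 263.6 to 373.2 TPM and Ccng1 at 119.5 to 264.4 TPM included. The lowest were Bcl2 at 0.777, Pmaip1 at 0.579, Bik at 0.267 and Fas at 0.108 TPM, and these 4 fell below the mean of 1 TPM required for a test.

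In the maturation window, PFNA moved a minority of the members, and in both directions. Trp53inp1, Sesn1, Perp and Plk2 of the p53 targets rose together with the survival gene Bcl2l1 and the BH3-only gene Bmf. Ccng1, Bax, Eda2r and Dap fell. Of 30 tested members, 10 passed (33.3%; limma on log2(TPM + 1), Benjamini-Hochberg adjusted p under 0.05), against 29.4% of the 13712 genes tested. The 6 higher members stand against 13.3% of all genes called higher and the 4 lower ones against 16.1% called lower, so the share called was near the background. Their median log2 fold change was -0.05, beside 0.02 over all genes tested. In no member did every PFNA library lie beyond every control, against 1.28% of all genes. Control replicate 11 was the lowest control for many members, so it set the lower end of their control ranges. For Zmat3 it had 7.77 TPM, where the next control, replicate 12, had 12.95 TPM. On TPM rescaled without the mitochondrial-like genes, an alternative chosen after seeing the data, 9 members were higher and 1 lower, and over all genes 3074 were higher and 1747 lower in place of 1824 and 2206.

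**Figure D1:**
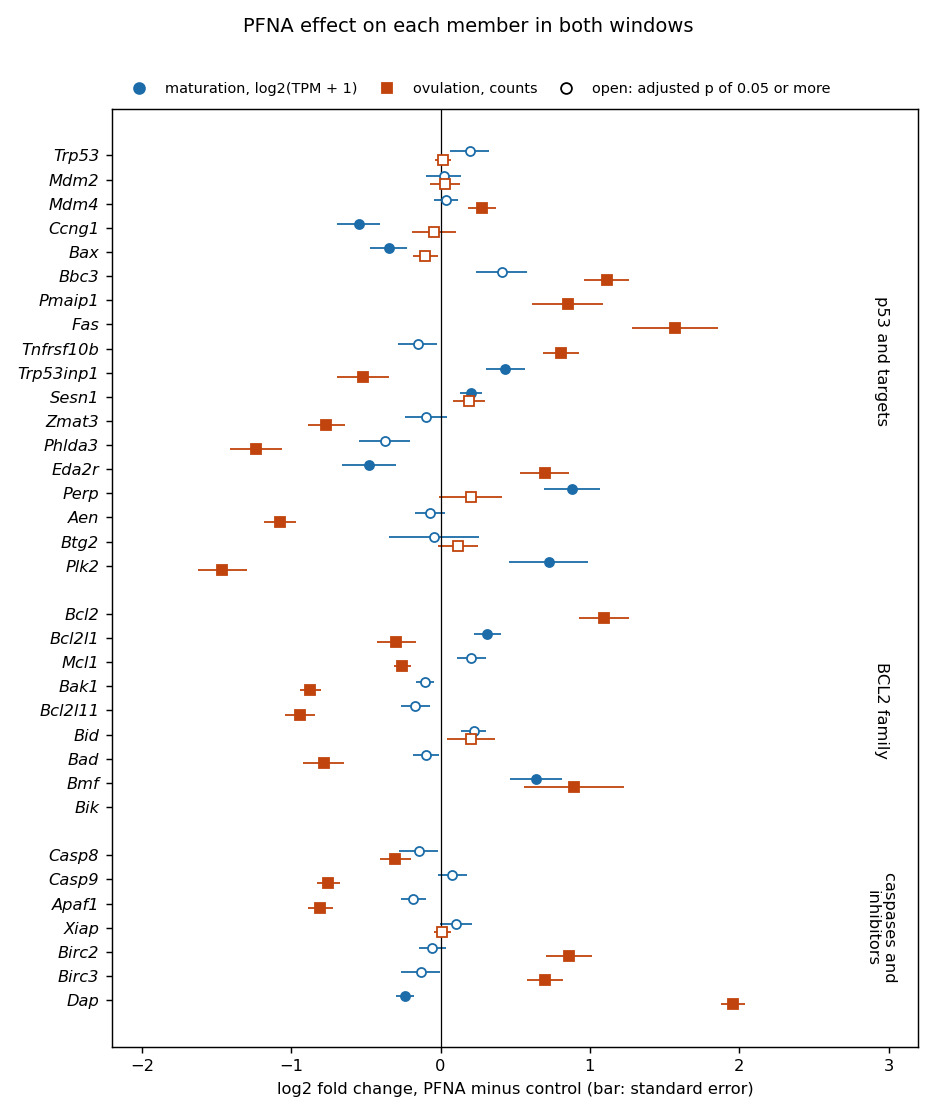
Log2 fold change of PFNA over control for each member, grouped by list, in the maturation (TPM, limma) and ovulation (CPM, edgeR) windows. Points are fitted values, bars are ± 1 SE, and filled points passed an adjusted p of 0.05; Dap lies at -0.24 in maturation and 1.96 in ovulation, the widest gap between windows in the higher direction.

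p53 itself and its chief regulators did not pass in maturation. Trp53 (chr11:69580359-69591873, build GRCm38, as for all gene positions here) measured 56.5 TPM ± 10.2 (SD, n = 11) in controls and 66.0 ± 18.4 (n = 10) with PFNA, and its log2 fold change was 0.20 with an SE of 0.13 (adjusted p = 0.28, limma). Its groups overlapped, at 45.6 to 75.5 TPM in controls and 44.5 to 104.8 TPM with PFNA. Mdm2 (chr10:117688875-117710758), which p53 both switches on and is degraded by, measured 26.2 TPM ± 4.57 and 26.8 ± 6.08, a log2 fold change of 0.02 ± 0.12 (limma adjusted p = 0.91). Mdm4, the relative of Mdm2 that masks p53 without degrading it, was at 19.2 and 19.7 TPM (log2 fold change 0.04, limma adjusted p = 0.77).

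The target genes that passed in maturation went both ways, 4 higher and 3 lower. They are 7 of the 16 tested genes of the p53 list (43.8%), where 29.4% of all genes passed. At this list size the share is not read as a result about the list. Perp (chr10:18845020-18857073), which encodes a desmosomal membrane protein, ran from 4.16 over a median of 6.16 to 8.26 TPM in controls and from 5.54 over 11.1 to 22.1 TPM with PFNA. Its log2 fold change was 0.88 with an SE of 0.19 (adjusted p = 0.0014, limma), and 6 of 10 PFNA libraries exceeded all the controls. Values after ± beside a log2 fold change are SEs throughout. Ccng1 (chr11:40748552-40755311) ran from 119.5 over 216.4 to 264.4 TPM in controls and from 99.5 over 136.2 to 217.1 TPM with PFNA, and fell by 0.55 ± 0.14 on the log2 scale (limma adjusted p = 0.0068). In that gene 4 PFNA libraries lay below every control while replicate 2, at 217.1 TPM, stood among the controls. Trp53inp1, a stress-induced promoter of autophagy and cell death, ran from 61.2 over 91.2 to 113 TPM in controls and from 79.5 over 122 to 154 TPM with PFNA, a log2 fold change of 0.43 ± 0.13 (limma adjusted p = 0.016).

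Plk2, Sesn1, Eda2r and Bax passed by a narrow margin. Plk2 (chr13:110395046-110400844), a polo-like kinase, ran from 21.8 over 43.3 to 82.7 TPM in controls and from 35.2 over 76.5 to 162.3 TPM with PFNA (log2 fold change 0.72 ± 0.26, limma adjusted p = 0.044), and 3 PFNA libraries exceeded all the controls. Sesn1, a sestrin that restrains mTORC1, measured 2.90 TPM ± 0.273 and 3.51 ± 0.625, a log2 fold change of 0.20 ± 0.08 (limma adjusted p = 0.0462). Eda2r, a receptor for the ectodysplasin EDA-A2, measured 7.96 TPM ± 2.59 and 5.40 ± 2.02, a log2 fold change of -0.48 ± 0.18 (limma adjusted p = 0.0495). These 3 calls were lost when single libraries were left out. For Plk2 this held without control replicates 1, 2, 3, 6, 7, 10 or 11 or PFNA replicates 1, 3, 4, 6, 7 or 10, 13 of 21 fits, with adjusted p up to 0.085. For Sesn1 it held in 14 of 21 fits, with adjusted p up to 0.079, namely without control replicates 1, 2, 3, 5, 6, 9, 10, 11 or 12 or PFNA replicates 3, 6, 7, 9 or 10. For Eda2r it held in 16 of 21, with adjusted p up to 0.091, without control replicates 1, 2, 3, 5, 6, 8, 9 or 10 or PFNA replicates 1, 3, 4, 5, 7, 8, 9 or 10. With no filter on low values, these 3 genes and Bax did not pass (adjusted p = 0.0513 to 0.071).

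The other tested p53 targets of the maturation window did not pass with limma on the deposited TPM. The PUMA gene Bbc3 was at 6.46 TPM ± 2.77 in controls and 8.36 ± 1.10 with PFNA (log2 fold change 0.41 ± 0.17, adjusted p = 0.08). Phlda3, an inhibitor of AKT, was at 34.6 ± 11.3 and 25.7 ± 5.68 TPM (log2 fold change -0.37 ± 0.17, adjusted p = 0.10). Bbc3 passed without control replicate 8 (adjusted p = 0.039) or 9 (0.024), and Phlda3 without control replicate 11 (0.03). Bbc3 also passed on TPM rescaled without the mitochondrial-like genes (log2 fold change 0.50, adjusted p = 0.03), and Phlda3 with median-ratio size factors (-0.40, adjusted p = 0.041). Tnfrsf10b, Zmat3, Aen and Btg2 had log2 fold changes between -0.15 and -0.04, with adjusted p from 0.40 to 0.93. Btg2, which is also an immediate-early gene, was the most variable of these, at 73.3 to 257.2 TPM in controls and 65.7 to 368.2 TPM with PFNA.

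In the BCL2 family of the maturation window, 3 of 9 tested members passed, a share of 33.3% that is near the 29.4% of all genes. Bcl2l1, which encodes BCL-XL, ran from 10.7 over 14.4 to 15.9 TPM in controls and from 13.2 over 16.7 to 23.7 TPM with PFNA, and 8 of 10 PFNA libraries exceeded all the controls (log2 fold change 0.31 ± 0.09, limma adjusted p = 0.0097). Bmf, a BH3-only gene tied to loss of adhesion, rose from 1.32 TPM ± 0.4996 to 2.75 ± 1.48, a log2 fold change of 0.64 ± 0.17 (limma adjusted p = 0.008). Its 2 highest PFNA libraries stood far above the other 8, the highest being replicate 10 at 5.92 TPM, and without that replicate the log2 fold change was 0.53 (adjusted p = 0.012). Bax (chr7:45461697-45466898) ran from 78.6 over 96.1 to 147 TPM in controls and from 53.8 over 78.7 to 118.7 TPM with PFNA, and fell by 0.35 ± 0.12 on the log2 scale (limma adjusted p = 0.04). The Bax call was lost in 9 of 21 fits, without control replicates 3, 8, 9 or 10 or PFNA replicates 3, 4, 5, 8 or 10, with adjusted p up to 0.078.

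The remaining BCL2 family members did not pass in maturation. Mcl1 was at 323 TPM ± 40.2 and 376 ± 74.2 (log2 fold change 0.21 ± 0.10, limma adjusted p = 0.12), and Bid, which links death receptors to mitochondria, at 3.24 ± 0.586 and 3.94 ± 0.614 (0.22 ± 0.08, adjusted p = 0.0511). Without PFNA replicates 1 and 2, whose oocyte share was close to that of controls, Mcl1 had a log2 fold change of 0.28 (adjusted p = 0.027) and Bid one of 0.25 (adjusted p = 0.034), both past the threshold. PFNA replicate 10, with an oocyte share of 0.0332%, stayed in that fit, at 464.8 TPM of Mcl1 and 4.45 TPM of Bid. Leaving out single libraries took Bid past the threshold as well, without control replicate 8 (0.0095) or PFNA replicates 1, 2, 3 or 8 (adjusted p 0.039 to 0.0481). Bid passed too with median-ratio size factors (0.20, adjusted p = 0.043), with a pseudocount of 0.1 (0.28, adjusted p = 0.0468) and on the rescaled TPM (0.30, adjusted p = 0.014), and Mcl1 on the rescaled TPM (0.29, adjusted p = 0.028). Bak1, Bcl2l11 and Bad had log2 fold changes of -0.11, -0.17 and -0.10 (limma adjusted p = 0.20, 0.20 and 0.42).

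Of the caspase group, Dap alone passed in maturation, 14.3% of the 7 members against 29.4% of all genes. Dap (chr15:31224314-31274341), first described in interferon-gamma-induced death and later as a suppressor of autophagy, ran from 24.3 over 28.3 to 33.7 TPM in controls and from 20.9 over 24.8 to 26.9 TPM with PFNA, and fell by 0.24 ± 0.06 on the log2 scale (limma adjusted p = 0.0063). In the initiator caspase genes Casp8 and Casp9, the apoptosome scaffold Apaf1, and the inhibitor genes Xiap, Birc2 and Birc3, the log2 fold changes lay between -0.18 and 0.10 with limma adjusted p from 0.11 to 0.68. Apaf1 passed without control replicate 11 (log2 fold change -0.22, adjusted p = 0.032) and with median-ratio size factors (-0.21, adjusted p = 0.033), and Birc3 without PFNA replicate 10 (-0.25, adjusted p = 0.035). Dap did not pass on TPM rescaled without the mitochondrial-like genes (log2 fold change -0.16, adjusted p = 0.063), nor did Bax (0.08) or Eda2r (0.078). The summed oocyte share differed between most of the same libraries, as given above. With an oocyte score as covariate, only Bmf and Dap still passed. The other 8 kept their direction, with adjusted p = 0.0543 for Perp (log2 fold change 0.88), 0.097 for Ccng1 (-0.56) and 0.30 for Bcl2l1 (0.20). The score and PFNA treatment went together in most libraries, so this fit cannot tell them apart. In it Plk2 (1.05), Sesn1 (0.31) and Eda2r (-0.56) had larger changes than without the score. Trp53inp1 (0.32), Bax (-0.28) and Bcl2l1 had smaller ones.

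**Figure D2:**
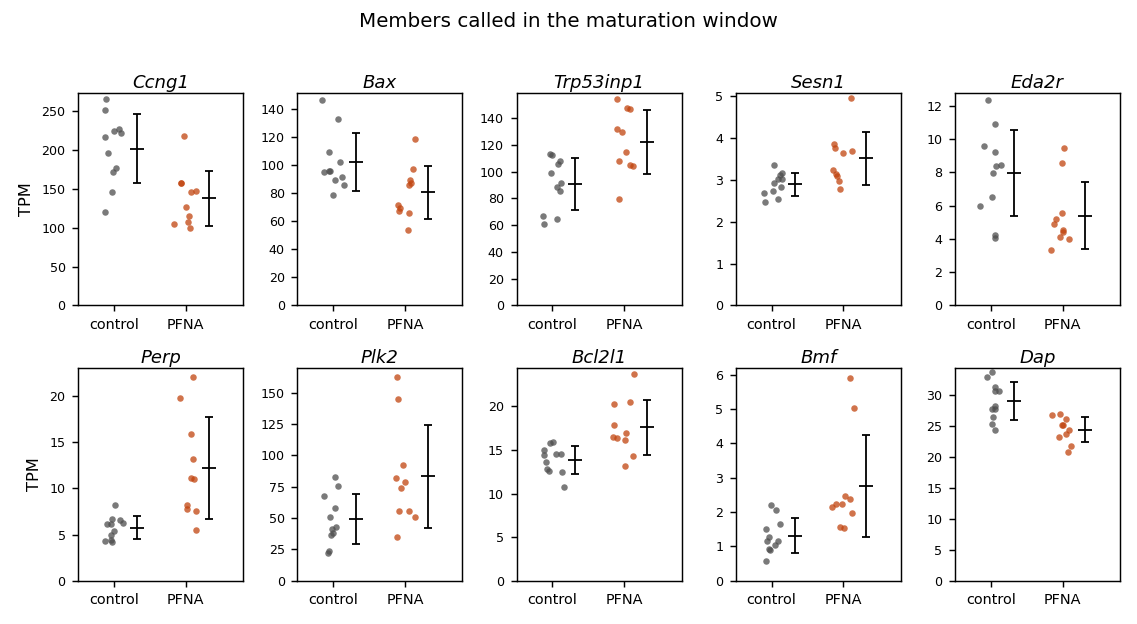
TPM of the 10 members that passed in the maturation window, one point per library, for 11 control and 10 PFNA libraries, with the mean and SD beside the points. The groups overlap in every panel; Perp and Bcl2l1 have 6 and 8 PFNA libraries above every control.

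In the ovulation window most members differed, as did most genes. The death receptors Fas and Tnfrsf10b, the BH3-only genes Bbc3, Pmaip1 and Bmf, the survival gene Bcl2, the inhibitor genes Birc2 and Birc3, Dap, Eda2r and Mdm4 rose with PFNA. The pore former Bak1, the BH3-only genes Bcl2l11 and Bad, the apoptosome genes Apaf1 and Casp9, Casp8, the survival genes Mcl1 and Bcl2l1, and the p53 targets Plk2, Aen, Phlda3, Zmat3 and Trp53inp1 fell. Of 33 tested members, 24 passed (72.7%; edgeR quasi-likelihood test, adjusted p under 0.05), against 73.2% of the 13441 genes tested, a share near the background. The 11 higher members stand against 38.0% of all genes called higher and the 13 lower ones against 35.2% called lower. The median log2 fold change was 0.02 over the members and 0.04 over all genes tested. In 7 members every PFNA library lay beyond every control, 1 above (Dap) and 6 below, against 26.0% of all genes.

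Trp53 and Mdm2 did not pass in ovulation either. The SD of the controls was 9.07% of the mean for Trp53, against 18.0% in maturation. For Mdm2 it was much the same in both windows, 17.2% and 17.5%. Trp53 was at 166.6 CPM ± 15.1 (SD, n = 12) in controls and 168.9 ± 11.4 (n = 11) with PFNA (log2 fold change 0.02 ± 0.05, edgeR adjusted p = 0.76), and every PFNA library lay within the range of the controls. Mdm2 was at 121 CPM ± 20.8 and 123.6 ± 27.0 (0.03 ± 0.10, edgeR adjusted p = 0.80). Mdm4 ran from 106.3 over 123.3 to 138.7 CPM in controls and from 72.7 over 150.1 to 185.3 CPM with PFNA, with 10 of 11 PFNA libraries above every control and replicate 5 below them all. Its log2 fold change was 0.28 ± 0.10 (edgeR adjusted p = 0.012), and 0.35 (adjusted p = 8.9e-06) without that replicate.

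The p53 targets that act at the death receptor or as BH3-only proteins rose in ovulation. Fas (chr19:34290666-34327772), the receptor for Fas ligand, ran from 1.35 over 3.21 to 6.02 CPM in controls and from 3.38 over 9.91 to 20.8 CPM with PFNA, with 9 of 11 PFNA libraries above every control (log2 fold change 1.57 ± 0.29, edgeR adjusted p = 3.1e-05). Tnfrsf10b, the mouse receptor for TRAIL, ran from 32.4 over 46.6 to 53.8 CPM in controls and from 48.4 over 77.4 to 111.4 CPM with PFNA (0.81 ± 0.12, adjusted p = 1.5e-06). In both receptors the lowest PFNA libraries overlapped the highest controls. Bbc3, the PUMA gene, ran from 5.22 over 7.96 to 14.3 CPM in controls and from 9.07 over 18.0 to 24.4 CPM with PFNA (1.11 ± 0.15, edgeR adjusted p = 2.8e-07). Pmaip1, the NOXA gene, ran from 0.887 over 2.44 to 3.35 CPM in controls and from 1.95 over 4.28 to 8.43 CPM with PFNA (0.85 ± 0.24, edgeR adjusted p = 0.0025). In Bbc3 10 and in Pmaip1 7 of 11 PFNA libraries lay above every control. Eda2r rose from 44.1 CPM ± 8.70 to 71.4 ± 24.2 (0.70 ± 0.17, edgeR adjusted p = 0.00057).

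Another set of p53 targets fell in the same window, though not evenly across libraries. In PFNA replicates 2 and 10, Zmat3 (47.26 and 42.53 CPM) and Trp53inp1 (213.4 and 261.2 CPM) were lowest. Eda2r (33.96 and 40.95 CPM) lay within its control range there. In replicate 6, Eda2r was highest (113.3 CPM) and Trp53inp1 (803.8 CPM) lay within its control range. Plk2 and Bbc3 differed, both being lowest in replicate 6 (21.22 and 9.074 CPM). Whether the targets moved together across libraries was not tested. Plk2 ran from 76.0 over 110.9 to 200.3 CPM in controls and from 21.2 over 44.1 to 53.1 CPM with PFNA, so that all 11 PFNA libraries lay below every control (log2 fold change -1.46 ± 0.16, edgeR adjusted p = 1.7e-08). Aen (chr7:78895854-78911209), the apoptosis-enhancing nuclease, ran from 99.3 over 123.7 to 144.2 CPM in controls and from 37.4 over 58.0 to 79.5 CPM with PFNA, again without overlap (-1.07 ± 0.11, edgeR adjusted p = 2.2e-09). Phlda3 ran from 12.3 over 19.3 to 23.5 CPM in controls and from 3.69 over 7.99 to 14.7 CPM with PFNA (-1.23 ± 0.17, edgeR adjusted p = 6.4e-07). The RNA-binding protein gene Zmat3 and Trp53inp1 fell less. Zmat3 was at 127.1 CPM ± 14.0 in controls and 74.9 ± 21.2 with PFNA (-0.76 ± 0.12, edgeR adjusted p = 5.2e-06). Trp53inp1 was at 745.7 CPM ± 144.9 and 521.2 ± 183.3 (-0.52 ± 0.17, edgeR adjusted p = 0.0098), and 5 of 11 PFNA libraries were under the whole control range, the lowest at 213.4 CPM.

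Ccng1, Bax, Sesn1, Perp and Btg2 of the p53 list did not pass in ovulation with edgeR. Of the 18 tested genes of that list 11 passed (61.1%), 6 higher and 5 lower, where 73.2% of all genes passed. Ccng1 had means of 145.9 CPM ± 19.2 and 141.5 ± 46.8 (log2 fold change -0.04 ± 0.15, adjusted p = 0.80), with 3 PFNA libraries above and 3 below every control. Its PFNA libraries were thus more spread than its controls, from 77.0 to 209.2 CPM against 107.5 to 170.2 CPM. Bax was at 49.0 and 45.7 CPM (-0.10, adjusted p = 0.28), Sesn1 at 13.3 and 15.3 CPM (0.19, adjusted p = 0.11) and Perp at 18.3 and 21.0 CPM (0.20, adjusted p = 0.40). Without PFNA replicate 9, Sesn1 passed (log2 fold change 0.24, adjusted p = 0.044).

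**Figure D3:**
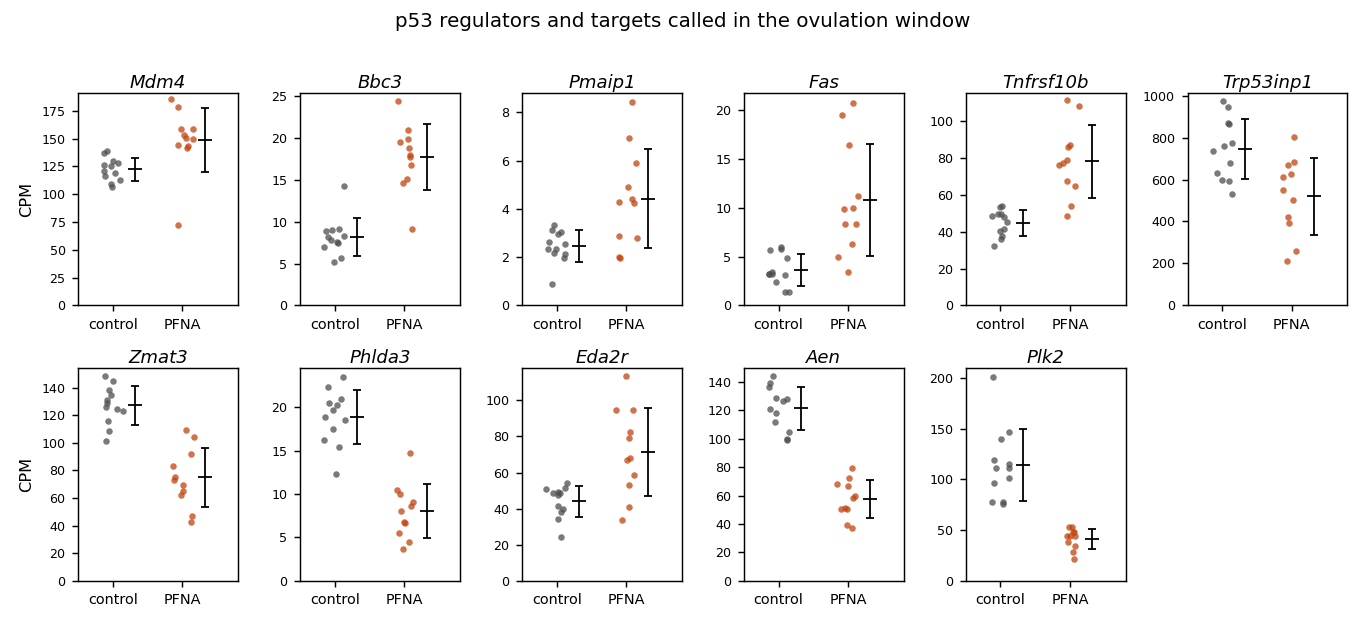
CPM of the 11 of 18 p53 regulators and targets that passed in the ovulation window (61.1%, against 73.2% of all genes). Each point is a library (12 controls, 11 PFNA), with mean and SD beside the points. Plk2 and Aen have no overlap between groups, and in Mdm4 PFNA replicate 5, at 72.7 CPM, lies apart from the other 10.

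In the BCL2 family of the ovulation window, 9 of 11 tested members passed (81.8%, against 73.2% of all genes), 4 higher and 5 lower, with survival and BH3-only genes on both sides. Of the survival genes, Bcl2 (chr1:106538178-106714274) ran from 4.19 over 6.47 to 11.4 CPM in controls and from 9.47 over 15.7 to 19.4 CPM with PFNA, with 10 of 11 PFNA libraries above every control (log2 fold change 1.09 ± 0.17, edgeR adjusted p = 2.2e-06). Mcl1 ran from 306.5 over 325.5 to 383.3 CPM in controls and from 245.5 over 279.6 to 313.6 CPM with PFNA (-0.26 ± 0.06, edgeR adjusted p = 0.00019). Bcl2l1 was at 22.1 CPM ± 3.26 and 18.0 ± 4.89 (-0.30 ± 0.13, edgeR adjusted p = 0.0456). The Bcl2l1 call was narrow: it was lost with median-ratio size factors (adjusted p = 0.064), with DESeq2 (0.06), and in 14 of 23 fits that left out 1 library, with adjusted p up to 0.081. Those libraries were control replicates 2, 4, 5, 6, 7, 8, 9 and 12 and PFNA replicates 4, 5, 6, 7, 8 and 11.

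The pore former Bak1 and the BH3-only gene Bcl2l11 had the clearest falls of the family. Bak1 (chr17:27019810-27029009) ran from 43.5 over 54.8 to 64.0 CPM in controls and from 23.1 over 30.1 to 34.4 CPM with PFNA (log2 fold change -0.87 ± 0.07, edgeR adjusted p = 5.4e-11). Bcl2l11 (chr2:128126038-128162547), the BIM gene, ran from 43.2 over 51.8 to 62.7 CPM in controls and from 20.1 over 25.5 to 37.7 CPM with PFNA (-0.94 ± 0.10, edgeR adjusted p = 6.1e-09). In both, all 11 PFNA libraries lay below every control. Bad, a BH3-only gene controlled by phosphorylation, fell from 10.6 CPM ± 2.04 to 6.14 ± 1.47 (-0.78 ± 0.14, edgeR adjusted p = 1.8e-05). Bmf rose from 1.99 CPM ± 1.52 to 3.73 ± 1.15 (0.89 ± 0.33, edgeR adjusted p = 0.019), although 1 PFNA library alone exceeded every control. Bax and Bid did not pass, Bid at 13.9 and 16.04 CPM (0.20, adjusted p = 0.26), and Bik, with 15 counts over the 12 controls and 23 over the 11 PFNA libraries, was too low to test.

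Exons of Bak1, Bid, Bad, Bax, Bcl2 and Casp9 overlap those of another gene, and whether counting used strand is not given in the sources used here. For Bak1 the shared stretch is 614 of 2407 exonic bases, with Ggnbp1 at a mean of 1.98 CPM in the ovulation table. For Bad it is 524 of 2558 bases with Gpr137 (9.80 CPM in ovulation, 44.7 TPM in maturation), and for Bid 628 of 3550 bases with Bcl2l13 (115.1 CPM, 17.6 TPM). Reads of Bad and Gpr137, or of Bid and Bcl2l13, could therefore have been split between them, and their values are uncertain to that extent.

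Of the caspase group, 6 of 7 members passed in ovulation, 3 higher and 3 lower, a share of 85.7% where 73.2% of all genes passed. At these list sizes neither share is read as a result about the group. Apaf1 (chr10:90989311-91082770), the apoptosome scaffold, ran from 79.6 over 100.2 to 124.7 CPM in controls and from 45.6 over 54.2 to 74.4 CPM with PFNA (log2 fold change -0.80 ± 0.08, edgeR adjusted p = 4.6e-09). Casp9 (chr4:141793612-141815976), the caspase that the apoptosome activates, ran from 34.4 over 43.0 to 50.2 CPM in controls and from 19.1 over 25.2 to 30.9 CPM with PFNA (-0.75 ± 0.08, edgeR adjusted p = 2.7e-09). The apoptosome pair was thus lower in every PFNA library than in any control. Casp8, which acts below the death receptors, fell less, from 17.2 CPM ± 2.87 to 14.0 ± 2.23 (-0.30 ± 0.10, edgeR adjusted p = 0.011).

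Birc2 and Birc3, which encode the ubiquitin ligases cIAP1 and cIAP2 of TNF receptor signalling, rose in ovulation. Birc2 ran from 36.9 over 51.7 to 89.2 CPM in controls and from 60.7 over 97.9 to 156.7 CPM with PFNA (log2 fold change 0.86 ± 0.15, edgeR adjusted p = 1.9e-05). Birc3 ran from 17.8 over 24.1 to 37.0 CPM in controls and from 32.2 over 40.5 to 65.6 CPM with PFNA (0.70 ± 0.12, edgeR adjusted p = 1.2e-05). Xiap, the direct caspase inhibitor, was at 114.9 and 116.0 CPM (0.01, edgeR adjusted p = 0.85). Dap had the largest difference of all members in this window. It ran from 15.7 over 21.7 to 26.7 CPM in controls and from 75.4 over 83.1 to 101.3 CPM with PFNA (1.96 ± 0.08, edgeR adjusted p = 1.2e-16). The lowest PFNA library of Dap was well above the highest control.

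Fas, Bcl2 and Birc3 are also expressed by leukocytes, so the leukocyte markers are given beside them. The 8 markers summed to 0.000194% to 0.0107% of the scaled library size in the ovulation controls and 0.0156% to 0.0711% with PFNA. That gap was carried by Cd3e, a gene of the T cell receptor complex, at 0 to 0.507 CPM in controls and 153 to 656 CPM with PFNA. The other 7 markers overlapped, at 0.000172% to 0.0107% and 0.000309% to 0.0143%, with medians of 0.00267% and 0.00607%. Their part in these results was not tested. With the oocyte score as covariate, none of the calls on the 33 tested members of the ovulation window changed.

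**Figure D4:**
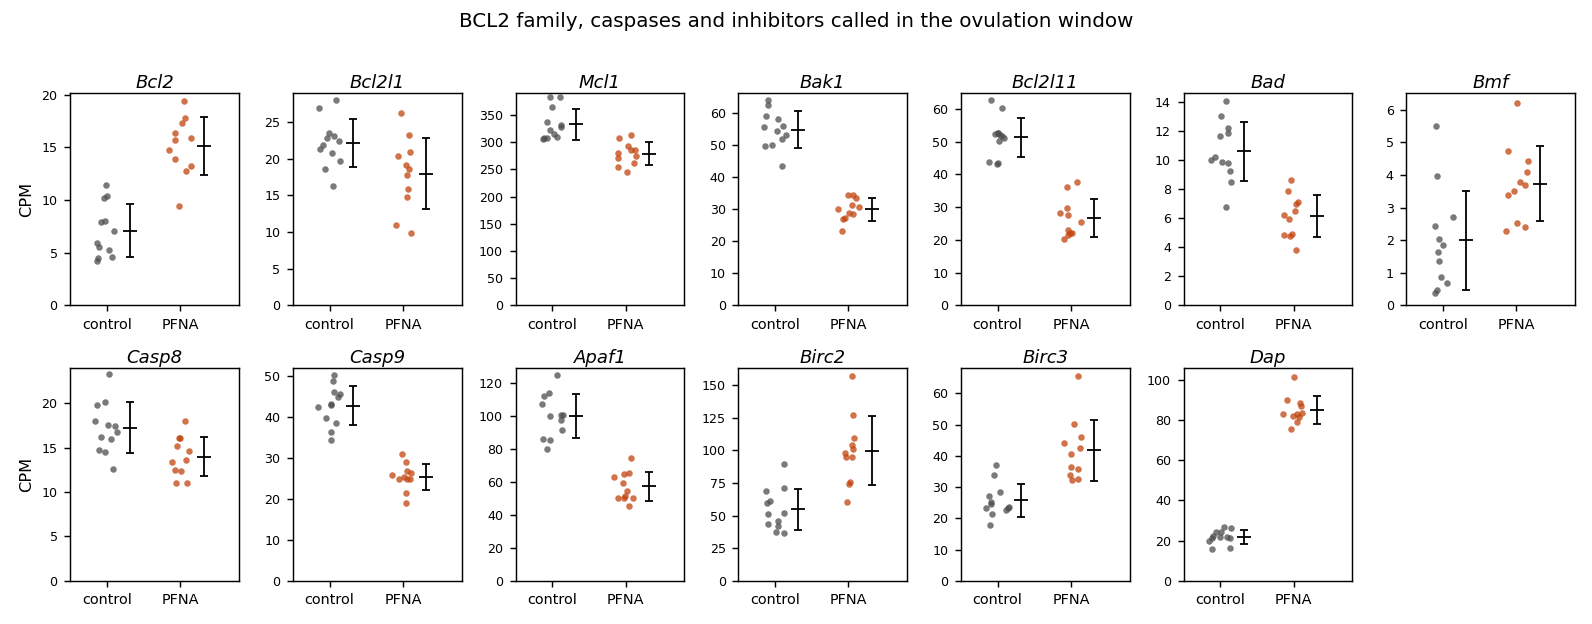
CPM of the BCL2 family and caspase group members that passed in the ovulation window and are not in the p53 list, one point per library (12 controls, 11 PFNA), with mean and SD. Dap lies higher in every PFNA library than in any control, and Bak1, Bcl2l11, Casp9 and Apaf1 lie lower in every one.

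The effects of the windows were then compared, as the effect on log2(CPM + 1) in ovulation minus that on log2(TPM + 1) in maturation (limma within each table, adjusted over the 11215 genes tested in both). The tables come from separate processing in different units, so the comparison is between effects and not between levels. Of 30 members tested in both, 19 differed (63.3%), against 67.7% of all genes. The effect was higher in ovulation for 6, against 32.0% of all genes, and lower for 13, against 35.6%.

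Of these 30 members, 5 passed in opposite directions in the windows, as did 12.8% of the 11215 genes. Plk2, Trp53inp1 and Bcl2l1 rose with PFNA in maturation and fell in ovulation, with differences between the effects of -2.15 ± 0.31 (adjusted p = 1.9e-07), -1.02 (1.0e-04) and -0.63 (0.0004) on the log2 scale. Eda2r and Dap fell in maturation and rose in ovulation, with differences of 1.11 (adjusted p = 0.00012) and 2.16 ± 0.10 (1.9e-22). Of the single-window calls behind these directions, those of Plk2 and Eda2r in maturation and of Bcl2l1 in ovulation were narrow, lost in 13 of 21, 16 of 21 and 14 of 23 fits that left out 1 library. Bmf rose in both, and its difference did not pass. For the other differing members the effect passed in ovulation or in maturation only: Tnfrsf10b (0.92), Birc2 (0.91), Birc3 (0.81) and Bbc3 (0.62) lay higher in ovulation. Aen (-1.02), Phlda3 (-0.82), Casp9 (-0.81), Bcl2l11 (-0.77), Bak1 (-0.75), Perp (-0.71), Zmat3 (-0.70), Apaf1 (-0.62), Bad (-0.61) and Mcl1 (-0.46) lay lower. Ccng1, lower with PFNA in maturation only, had a difference of 0.44 that did not pass (adjusted p = 0.058). It passed without any 1 of maturation control replicates 11 or 12, maturation PFNA replicates 2 or 9, or ovulation PFNA replicates 2, 4 or 10 (adjusted p 0.021 to 0.0497). It also passed with median-ratio size factors (0.49, adjusted p = 0.033) and without maturation PFNA replicates 1 and 2 together (0.51, adjusted p = 0.025). The differences of Mdm4, without ovulation PFNA replicate 5 (0.31, adjusted p = 0.0059), and of Bax, without maturation PFNA replicate 2 (0.31, adjusted p = 0.0483), also passed. So did that of Mdm4 with median-ratio size factors (0.27, adjusted p = 0.044) and that of Bax without maturation PFNA replicates 1 and 2 together (0.34, adjusted p = 0.04). Mdm2 had a difference of 0.002 (adjusted p = 0.99) and Trp53 one of -0.17 (adjusted p = 0.28).

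**Figure D5:**
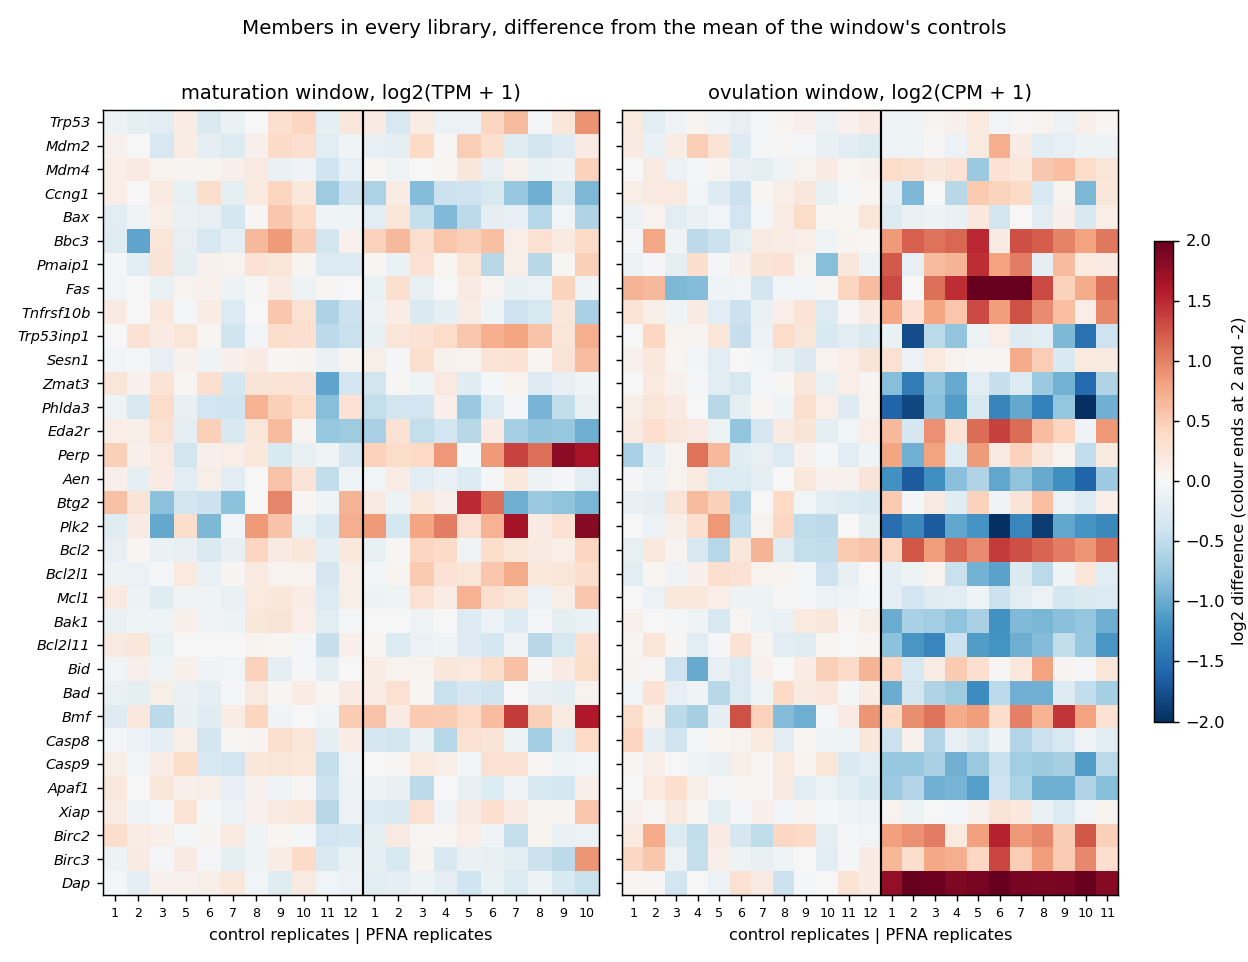
Heat map of 33 members (rows; Bik left out) by library (columns), as log2(value + 1) relative to the average control of that window, with the colour scale ending at -2 and 2. Rows of one colour in the ovulation PFNA columns include Dap, Apaf1, Casp9, Bak1 and Bcl2l11, and Plk2, Aen, Phlda3 and Zmat3 of the p53 list. Maturation PFNA columns are mixed along most rows.

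Other genes of the same pathways were counted from wider lists. Of 34 further p53 pathway genes, 31 were tested in each window: 5 were higher and 9 lower in maturation (limma), and 12 were higher and 8 lower in ovulation (edgeR). That is 45.2% called in maturation, where 29.4% of all genes were, and 64.5% in ovulation, where 73.2% were. In maturation the smallest p-values belonged to lower genes. The caspase-2 adaptor gene Pidd1 went from 25.2 TPM ± 4.53 to 13.3 ± 3.45 (log2 fold change -0.88, limma adjusted p = 1.9e-05). The mitotic genes Gtse1 and Ckap2 went from 12.97 ± 2.08 to 4.84 ± 3.14 and from 12.2 ± 1.82 to 5.14 ± 2.66 TPM (-1.39 and -1.20, adjusted p = 2.8e-05 for each). Cdkn1a, the p21 gene and best-known p53 target, is among these 34 genes and was chosen for naming after its values were seen. It fell from 46.3 TPM ± 17.2 to 22.6 ± 11.96 in maturation (-1.08, limma adjusted p = 0.0032) and was at 410.8 CPM ± 83.4 and 371.2 ± 98.3 in ovulation (-0.15, edgeR adjusted p = 0.36).

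In ovulation the smallest p-values of the wider p53 list belonged to higher genes. Gdf15, a stress-induced secreted factor, rose from 0.506 CPM ± 0.370 to 22.9 ± 10.02 (log2 fold change 5.46, edgeR adjusted p = 8.2e-13). Rrm2b, the p53-induced subunit of ribonucleotide reductase, rose from 8.57 CPM ± 1.09 to 17.9 ± 3.09 (1.06, edgeR adjusted p = 9.7e-10). Ddb2, which recognises damaged DNA for repair, rose from 1.26 CPM ± 0.496 to 5.40 ± 0.998 (2.08, edgeR adjusted p = 1.2e-09). The median log2 fold change of this list was -0.08 in maturation and 0.16 in ovulation.

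The wider BCL2 list held 14 genes, of which 9 were tested in maturation (0 higher, 3 lower) and 11 in ovulation (4 higher, 2 lower). The shares called were 33.3% and 54.5%, against 29.4% and 73.2% of all genes. At this list size neither share is read as a result about the list. Bok, a BAX-like gene, fell from 67.1 TPM ± 10.9 to 24.7 ± 11.7 in maturation (log2 fold change -1.49, limma adjusted p = 5.9e-06). Bnip3, a mitophagy receptor, fell from 152.3 ± 26.8 to 85.2 ± 41.3 TPM (-0.97, adjusted p = 0.0029), and the oocyte-expressed Bcl2l10 from 43.4 ± 12.3 to 18.6 ± 29.3 TPM (-2.93, adjusted p = 0.0059), alongside the oocyte share given above. In ovulation the co-chaperone gene Bag1 fell from 240.5 CPM ± 16.2 to 157.4 ± 23.1 (-0.61, edgeR adjusted p = 2.9e-08). Bcl2l13 rose from 103.4 ± 10.9 to 127.8 ± 9.51 CPM (0.31, edgeR adjusted p = 4.7e-05).

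Of 27 further caspase and death receptor genes, 23 were tested in maturation (0 higher, 5 lower) and 24 in ovulation (5 higher, 9 lower). The shares called were 21.7% and 58.3%, against 29.4% and 73.2% of all genes, and are likewise not read as a result about the list. In maturation Cycs, the cytochrome c gene, fell from 270.4 TPM ± 22.9 to 176.9 ± 29.5 (log2 fold change -0.62, limma adjusted p = 1.1e-05). Birc5, the survivin gene, which also acts in mitosis, fell from 42.5 ± 6.18 to 12.6 ± 9.76 TPM (-1.93, limma adjusted p = 1.7e-05). In ovulation the smallest p-values belonged to the death receptor arm and an effector caspase. The TNF receptor gene Tnfrsf1a fell from 153.1 CPM ± 21.1 to 62.7 ± 9.93 (-1.29, edgeR adjusted p = 2.0e-12). The receptor adaptor gene Fadd fell from 12.95 ± 2.13 to 5.34 ± 0.866 CPM (-1.28, edgeR adjusted p = 2.5e-10) and Casp6 from 19.5 ± 1.91 to 8.06 ± 1.68 CPM (-1.27, edgeR adjusted p = 8.6e-11). Fadd and Casp8, below the receptors, were thus lower in the window in which Fas and Tnfrsf10b were higher.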

How the data were processed

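RNA-seq of mouse follicles was taken as the tables that the authors deposited, 1 per window. The maturation table holds values that the authors name raw counts, but each library sums to 1000000 and 82.6% of the values are not whole (tolerance 1e-06), so they were treated as deposited TPM and not as counts. The ovulation table holds deposited estimated counts (18.3% not whole), which were rounded. The submitters' processing notes name Partek, Bowtie2 and HISAT2, with no role or version; build, annotation and counting tool are not given in the sources used here. The start and end of all 34 members match GENCODE annotation of GRCm38.

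Libraries were grouped by the labels. The maturation column CN6 was taken as the sample titled CM6, and maturation control replicate 4 was not analysed here. Every per-sample column was used. TPM were tested with limma 3.58.1 (trend, robust) on log2(TPM + 1), so fold changes of low genes are understated, for genes averaging 1 TPM or more over the libraries tested. Counts were tested with edgeR 4.0.16 (filterByExpr, TMM, robust quasi-likelihood) in R 4.3.3; CPM use the TMM library sizes, and the SE is the log2 fold change over the root of F. P-values were Benjamini-Hochberg adjusted over all genes tested and called under 0.05. All 34 members are reported. Of each wider list the 3 genes with the smallest p in each window were eligible to be named, and Cdkn1a was named besides. The members and lists were chosen with earlier results of these data known. On simulated data the tests recovered 94.0% (maturation, 13359 genes), 97.5% (ovulation, 11471 genes) and 95.1% (difference, 10308 genes) of 2-fold changes. That simulation drew both groups from the means and spread of the controls and changed 200 genes per window, in maturation only well-expressed ones. On the fitted scale of log2(TPM + 1), no tested member changed 2-fold in maturation, the largest being Perp at 1.84-fold. Mean TPM rose more than 2-fold for Perp (5.76 to 12.2) and Bmf (1.32 to 2.75). The SD of Perp was 1.25 TPM in controls and 5.52 TPM with PFNA. Far more genes than 200 were called in each window. The recovered shares therefore do not apply as they stand to these members. Alternatives were other pseudocounts, filters and size factors, DESeq2 1.42.0, a replicate block, an oocyte covariate, and leaving out libraries.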

Additional observations from a re-analysis of the deposited data

Results flagged for a closer look

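The effect of PFNA differed between the windows for 19 members, by the test of the difference itself (ovulation minus maturation, log2 scale). Among p53 targets the differences were 1.11 for Eda2r, 0.92 for Tnfrsf10b, 0.62 for Bbc3, -0.70 for Zmat3, -0.71 for Perp, -0.82 for Phlda3, -1.02 for Aen, -1.02 for Trp53inp1 and -2.15 for Plk2. In the BCL2 family they were -0.46 for Mcl1, -0.61 for Bad, -0.63 for Bcl2l1, -0.75 for Bak1 and -0.77 for Bcl2l11. In the caspase group they were 2.16 for Dap, 0.91 for Birc2, 0.81 for Birc3, -0.62 for Apaf1 and -0.81 for Casp9.

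Dixon's test was run on the highest and lowest library of each member in groups of up to 10 libraries, which here is the PFNA group of the maturation window, and chance marks about 1 group in 20. Of 34 members, 4 had a library far above the rest. Replicate 2 had 217.1 TPM of Ccng1 where the next library had 157.5. Replicate 10 had 4.95 TPM of Sesn1 with the next at 3.85, and 12.5 TPM of Birc3 with the next at 6.57. Replicate 1 had 0.443 TPM of Bik with the next at 0.212. Without replicate 10, Birc3 had a log2 fold change of -0.25 and passed (limma adjusted p = 0.035). Without replicate 2, Ccng1 had one of -0.62 (limma adjusted p = 0.0013). In these 3 replicates the summed oocyte marker share was 0.0115% to 0.0332%, and in the other 7 at most 0.00139%. Replicate 10 also had the lowest granulosa share of the PFNA group (1.73%) and its highest leukocyte (0.0195%), theca and stroma (0.202%) and endothelium (0.00504%) shares. The part of these shares in the values was not tested.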

How the results depend on the processing

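In the ovulation window 23 or 24 members passed under all 5 alternatives, and 19 to 21 members differed between the windows under the 4 alternatives there. The maturation window depended on the settings. Against 10 members called, 6 were called with no filter on low values (2 lower, 3 of the p53 list), and with the oocyte covariate 2 (1 higher, 1 lower, 0 of the p53 list, 1 of the BCL2 family). On TPM rescaled without mitochondrial-like genes, chosen after seeing the data, 1 was lower, 5 of the BCL2 family were called in place of 3, and 0 of the caspase group in place of 1. That rescaling moved the median of all genes from 0.02 to 0.10. Without PFNA replicates 1 and 2, 5 of the BCL2 family were called, and median-ratio size factors called 2 of the caspase group. Over all genes, 4030 were called in maturation, 1198 with the oocyte covariate and 2891 with the block. The cause was not tested.

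Leaving out 1 library, the members called in maturation ranged from 6 to 11, those lower from 2 to 6, those of the p53 list from 3 to 7 and those of the caspase group from 1 to 2.

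The replicate numbers did not pair the libraries: same-numbered deviations correlated at -0.14 to 0.17 over 9 pairs in maturation and -0.19 to 0.07 over 11 in ovulation, 1 pair exceeded 0.1, and 0 PFNA libraries correlated best with their own number. With the replicate block, 6 members were called in maturation (3 higher, 3 of the p53 list; Bax, Trp53inp1, Sesn1 and Plk2 lost their call) and 23 in ovulation (Bcl2l1 lost its call, adjusted p = 0.10), where 9298 of all genes were called.

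The values that changed direction under an alternative were not called in either setting. In maturation these were Mdm2 (-0.0088 with median-ratio size factors, -0.0132 with the block), Mdm4 (-0.0259 with the block), Btg2 (0.0058 with the block, 0.0388 rescaled), Aen (0.0086 rescaled), Birc2 (0.0246 rescaled), and with the oocyte covariate Bcl2l11 (0.0765), Bad (0.1546) and Birc3 (0.2266). In ovulation they were Trp53 (-0.0130), Mdm2 (-0.0031) and Xiap (-0.0195) with no filter, and Mdm2 (-0.0038) and Xiap (-0.0013) with the block. In the difference they were Mdm2 (-0.0783 rescaled, -0.0474 without PFNA replicates 1 and 2), Bid (-0.0783 and -0.0275 likewise, -0.0370 with a pseudocount of 0.1) and Sesn1 (0.0079 with median-ratio size factors). Leaving out 1 library, values in maturation ranged from -0.0313 to 0.0636 for Mdm2, -0.0110 to 0.0579 for Mdm4 and -0.2136 to 0.0606 for Btg2. In ovulation the ranges were -0.0011 to 0.0386 for Trp53, -0.0606 to 0.0797 for Mdm2, -0.1155 to 0.0186 for Ccng1 and -0.0158 to 0.0391 for Xiap. In the difference they were -0.0700 to 0.0542 for Mdm2, -0.0982 to 0.0061 for Sesn1 and -0.0928 to 0.0646 for Bid. Bik in ovulation, with 15 and 23 counts in all, was left out by the filter on low counts (adjusted p = 0.61 without it). Pmaip1, Fas, Bcl2 and Bik in maturation were left out by the mean of 1 TPM and had adjusted p of 0.99, 0.74, 0.19 and 0.29 without it.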
